A study of Homo sapiens with 10 samples.

Results

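The 4 single-cell RNA libraries of HCT116 cells held 23229 barcodes, and 8792 of them were shallow. A shallow barcode was selected on 2 measured values: it held fewer than 2000 UMIs (unique molecular identifiers, each standing for 1 captured RNA molecule), and less than 8% of those UMIs came from mitochondrially encoded genes. Both values are therefore given as a description and not as findings. The DOX libraries held 4338 and 4243 shallow barcodes of their 8000 barcodes each. The untreated libraries held 140 of 4701 (2.98%) and 71 of 2528 (2.81%). HCT116 is an established human colorectal carcinoma line, used here as wild type. DOX cells received 200 nM doxorubicin for 24 h and were then kept for 6 days in medium without the drug, and untreated cells received no drug. Each group had 2 libraries of 3′ RNA. The sources do not say whether they came from separate cultures, so every p-value below measures the spread between these libraries, which may be technical.

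Doxorubicin traps topoisomerase II on DNA and breaks it, and the breaks activate p53, which switches on inhibitors of the cell cycle such as CDKN1A and secreted proteins such as GDF15. Cells that survive can leave the cell cycle, grow large and keep expressing interferon-stimulated genes, some of which are maintained by U-ISGF3, a complex of STAT proteins and IRF9 that works without STAT phosphorylation. In droplet libraries a barcode with few UMIs can come from an intact cell with little RNA, from a damaged cell or from a droplet that caught only free RNA. Which of these the shallow barcodes were was not tested.

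Shallow barcodes carried a small part of each library's RNA. They held 6338818 and 5523781 UMIs in DOX libraries (3.96% and 3.24% of the library) and 167869 and 84191 UMIs in untreated libraries (0.0529% and 0.0402%). Levels are given as CPM, a gene's UMIs per 1000000 UMIs of the sum, so that a single UMI was worth 5.96 and 11.9 CPM in the untreated sums. The deep barcodes set beside them held 20000 to under 150000 UMIs under the same mitochondrial limit. There were 1261 and 964 deep DOX barcodes (95810665 and 80833875 UMIs) and 3320 and 1924 deep untreated barcodes (246352862 and 160888898 UMIs).

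Within the limit of 2000 UMIs the groups still differed in depth. The median was 1416 and 1215 UMIs per barcode in DOX libraries, against 1136 and 1094 in untreated libraries, and the lowest was 1341 and 1160, against 714 and 802. The study made Cell Ranger report 8000 barcodes for each DOX library, while the untreated barcodes passed the program's own cell caller, so the effect of the drug and that of the caller cannot be told apart in any comparison below. The median mitochondrial share was 0.860% and 1.04% in DOX, against 2.92% and 3.92% in untreated libraries. The limit of 8% had removed 673 and 1205 DOX barcodes under 2000 UMIs (13.4% and 22.1%), against 32 and 14 untreated ones (18.6% and 16.5%). The highest UMI totals inside the limit were 1999 and 1998 in DOX, against 1977 and 1921 in untreated libraries, and the lowest outside it were 2000 and 2000, against 2017 and 2043. For the mitochondrial limit the values just inside were 7.99% and 7.99% in DOX, against 7.83% and 7.69%, and those just outside were 8% in both, against 8.11% and 8.21%. Of all barcode sequences, 57 occurred in more than 1 library and 37 of those were found among the shallow barcodes of at least 1 library. No doublet caller was run.

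Markers of the labelled carcinoma line were present in the shallow barcodes. The keratin KRT18 had 31949 and 26073 UMIs in shallow DOX barcodes, against 188 and 109 in shallow untreated barcodes, and the adhesion molecule EPCAM had 3185 and 3020, against 52 and 41. These counts show presence only, since the DOX sums held far more UMIs in all. Of 18 markers of blood, stromal, endothelial, red cell and liver cells, 10 and 9 had a UMI in DOX, against 2 and 0 in untreated barcodes. Together they reached 7.73 and 13.2 CPM in DOX, against 11.9 and 0, and PTPRC, CD3E, CD3D, MS4A1, CDH5, COL1A2 and DCN were at 0 in all 4 sums.

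Summed per library, shallow DOX barcodes differed from shallow untreated barcodes in 2862 of 6433 genes tested by edgeR's quasi-likelihood test at an adjusted p under 0.05. With TMM scaling, which centres the bulk of genes on no change, 1548 genes were higher in DOX (24.1%) and 1314 were lower (20.4%). As parts of all UMIs, with no such centring, 618 genes were higher (9.61%) and 2743 were lower (42.6%), so the share of higher genes among the calls was 54.1% on the first scale and 18.4% on the second. TMM scaling raised the log2 fold changes in shallow barcodes by 0.74 over their values in parts of all UMIs. All 618 genes called higher in parts were also called higher with TMM, all 1314 called lower with TMM were also called lower in parts, and 4 genes were called higher with TMM and lower in parts. The median gene changed by -0.02 on the log2 scale with TMM and by -0.77 in parts. Values below are on the TMM scale unless parts are named. Of the genes tested, 1462 (22.7%) had fewer than 10 UMIs in the untreated sums, and 10 genes called higher had none there. For those 10 only a lower bound of the fold is given, against a floor of 3 UMIs over the untreated group. With 54 and 46 barcodes of each group, drawn so that number and UMIs matched, 888 genes were called, 494 higher and 394 lower.

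The p53 targets rose in shallow DOX barcodes. Of 34 listed, 27 passed the filter on low counts, and 21 of these rose and 0 fell, with a median log2 fold change of 1.60. In parts 13 rose and 1 fell, with a median of 0.86. CDKN1A, the inhibitor of cyclin-dependent kinases that holds cells in arrest (chr6:36644237-36655114, hg19), had 2594 and 2063 UMIs in DOX, against 2 and 2 in untreated libraries, which is 409 and 373 CPM, against 11.9 and 23.8. GDF15, a secreted stress cytokine (chr19:18485541-18499986), had 3808 and 3078 UMIs in DOX, against 10 and 2. In both genes every DOX sum lay far above every untreated sum. The log2 fold change of CDKN1A was 5.36 ± 0.37 (SE; edgeR's quasi-likelihood test, adjusted p = 1.05e-43) and that of GDF15 was 4.35 ± 0.28 (edgeR's quasi-likelihood test, adjusted p = 1.11e-50). The untreated mean of CDKN1A lay under 20 CPM. CDKN1A therefore passed the filter on low counts through the DOX libraries and had to be higher there. The ribosomal protein homologue RPS27L had 8248 and 6856 UMIs in DOX, against 55 and 21, a log2 fold change of 2.82.

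Other targets that rose, chosen after their values were seen, were BBC3 (log2 fold change 4.72) and BAX (2.00), which promote apoptosis, TP53I3 (2.82) and the death receptor FAS (2.62), and FAS was not called in parts (1.88). The death receptors TNFRSF10A (0.04) and TNFRSF10B (0.71) were not called. BBC3 rested on 1 untreated UMI (exact 95% interval of its ratio of CPM 2.87 to 634, for counting error) and FAS on 2 (1.02 to 30.8). MDM2, the ligase that degrades p53, had 1197 and 1142 UMIs in DOX, against 20 and 13, and rose by 1.33 (0.59 in parts, also called). The other targets not called were FERMT1 (-0.66), PPM1D (0.41), XPC (0.61) and ZMAT3 (0.67), and FERMT1 fell in parts (-1.40). Of the 27 tested targets 6, CDKN1A among them, had an untreated mean under 20 CPM. Those 6 passed the filter through the DOX libraries and had to be higher there. In 13 of the 27 the untreated sums held fewer than 10 UMIs.

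Of the secreted factors known from senescent cells (SASP), 20 of 26 were too low to test in shallow barcodes, among them IL1A, IL1B, IL6 and CXCL1. Of the 6 tested 4 rose and 0 fell, while in parts 3 rose and EREG, a growth factor of the EGF family, fell (-0.80, and -0.06 with TMM, not called). IGFBP6, a binding protein of insulin-like growth factors, had 2443 and 2401 UMIs in DOX, against 6 and 4 (log2 fold change 4.11). The protease inhibitor TIMP1 had 2451 and 2335, against 12 and 9 (3.02), and the urokinase receptor PLAUR had 482 and 425, against 6 and 1 (2.20).

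Interferon-stimulated genes had the highest medians of the lists with at least 6 genes tested in shallow barcodes. This order is a description only, since some of the genes behind these medians passed the filter through the DOX libraries. Of 29 genes known to be induced by U-ISGF3, 10 were tested, 9 rose and 0 fell, with a median log2 fold change of 3.32 (3.09 with the genes that had no untreated UMI set at their bound). In parts 8 rose and 0 fell, with a median of 2.59 (2.35 at the bound). The fitted median was 5.41 without untreated library 1. Here 8 of the 10 had an untreated mean under 20 CPM, passed the filter through the DOX libraries and had to be higher there. Of 24 other interferon-stimulated genes 9 were tested and 7 rose, and 6 rose and 1 fell in parts, where TRIM25 was the gene that fell. Of these 9, 3 had an untreated mean under 20 CPM, passed the filter through the DOX libraries and had to be higher there.

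ISG15, a ubiquitin-like modifier, had 10544 and 9188 UMIs in DOX, against 28 and 13 in untreated libraries, which is 1663 and 1663 CPM, against 167 and 154. The log2 fold change was 4.10 ± 0.21 (edgeR's quasi-likelihood test, adjusted p = 2.08e-78). IFI27 had 1765 and 1618 UMIs in DOX, against 0 and 1 (6.88 ± 0.52). With a single untreated UMI its ratio of CPM was 71.9, with an exact 95% interval of 12.9 to 2840 for counting error alone. IFITM3, a membrane protein that blocks virus entry, had 6345 and 5645, against 34 and 13 (3.18). IFI6 (chr1:27992575-27998723, hg19) had 3502 and 3246 UMIs in DOX and none in the untreated libraries, which makes it at least 47.8-fold higher. By the same bound IFIT1 (673 and 524 UMIs in DOX, none in untreated) was at least 8.48-fold higher, BST2 at least 4.58-fold and IFIT2 at least 3.78-fold. IFI27, IFI6, IFIT1, BST2 and IFIT2 passed the filter on low counts through the DOX libraries, so they had to be higher there.

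STAT2, the gene of a transcription factor of U-ISGF3, had 48 and 37 UMIs in DOX, against 0 and 1, and was not tested. IRF9, the gene of another, had 0 UMIs in the shallow sums of all 4 libraries, which allows up to 0.473 and 0.543 CPM in DOX, against 17.9 and 35.6 CPM. In deep barcodes it had 408 and 474 UMIs in DOX (4.26 and 5.86 CPM), against 214 and 160 (0.869 and 0.994 CPM), too few to test. Another protein-coding gene overlaps IRF9 on the same strand, so its counts are uncertain. Of 11 JAK and STAT genes 4 were tested and none was called on the TMM scale. At an unadjusted p under 0.05 2 of the 4 passed, DESeq2 called 0 of the 4, and in parts JAK1 and JAK2 fell. HSH2D, an adaptor protein that the study followed as a marker of poor prognosis, had 75 and 69 UMIs in DOX, against 0 and 3, and was too low to test. The protein-coding gene RAB8A overlaps HSH2D in part on the same strand, so the counts of HSH2D are uncertain too. As CPM, untreated library 2 lay above both DOX libraries for HSH2D and for STAT2, while untreated library 1 had no UMI of either. The larger UMI counts in DOX therefore show no rise of these genes.

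Genes of antigen presentation by MHC class I also rose, 7 of 8 tested (4 rose and 1 fell in parts). B2M, the light chain of MHC class I, had 7237 and 6016 UMIs in DOX, against 58 and 27 (log2 fold change 2.47) and HLA-B had 1734 and 1518, against 18 and 10 (2.04).

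The core of the interferon-stimulated response element, which STAT and IRF factors bind, is a pair of GAAA separated by 2 bases of any kind (a pair of TTTC on the other strand). It was searched on both strands in RefSeq promoters of GRCh38.p14, from 250 bases before to 50 bases after each gene's start. The motif occurred in 1255 of 35116 promoters (3.57%), in 17 of the 22 U-ISGF3-induced genes that had a promoter in the table (77.3%) and in 11 of 20 other interferon-stimulated genes (55.0%). The units differ: the first share counts promoters, which belong to 27305 genes. Those of the lists count genes with a match in any of their promoters. The 5 stretches below come from genes described above and are printed 5′ to 3′ on the gene's strand with 1 match in capitals. A match is a description of the sequence, not a shown binding site.
ISG15: tcgggaaaggGAAACCGAAActgaagccaa
IFI27: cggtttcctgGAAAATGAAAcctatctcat
IFIT1: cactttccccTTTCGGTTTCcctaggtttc
IFI6: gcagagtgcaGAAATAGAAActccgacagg
IFITM3: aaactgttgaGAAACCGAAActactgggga
Each of these promoters held 2 matches, except that of IFI6 with 3, and the last one in the window is shown. The matches shown start 107 bases (ISG15), 95 bases (IFI27), 103 bases (IFIT1), 93 bases (IFI6) and 35 bases (IFITM3) before the start of the gene, and that of IFIT1 is on the other strand.

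**Figure D1:**
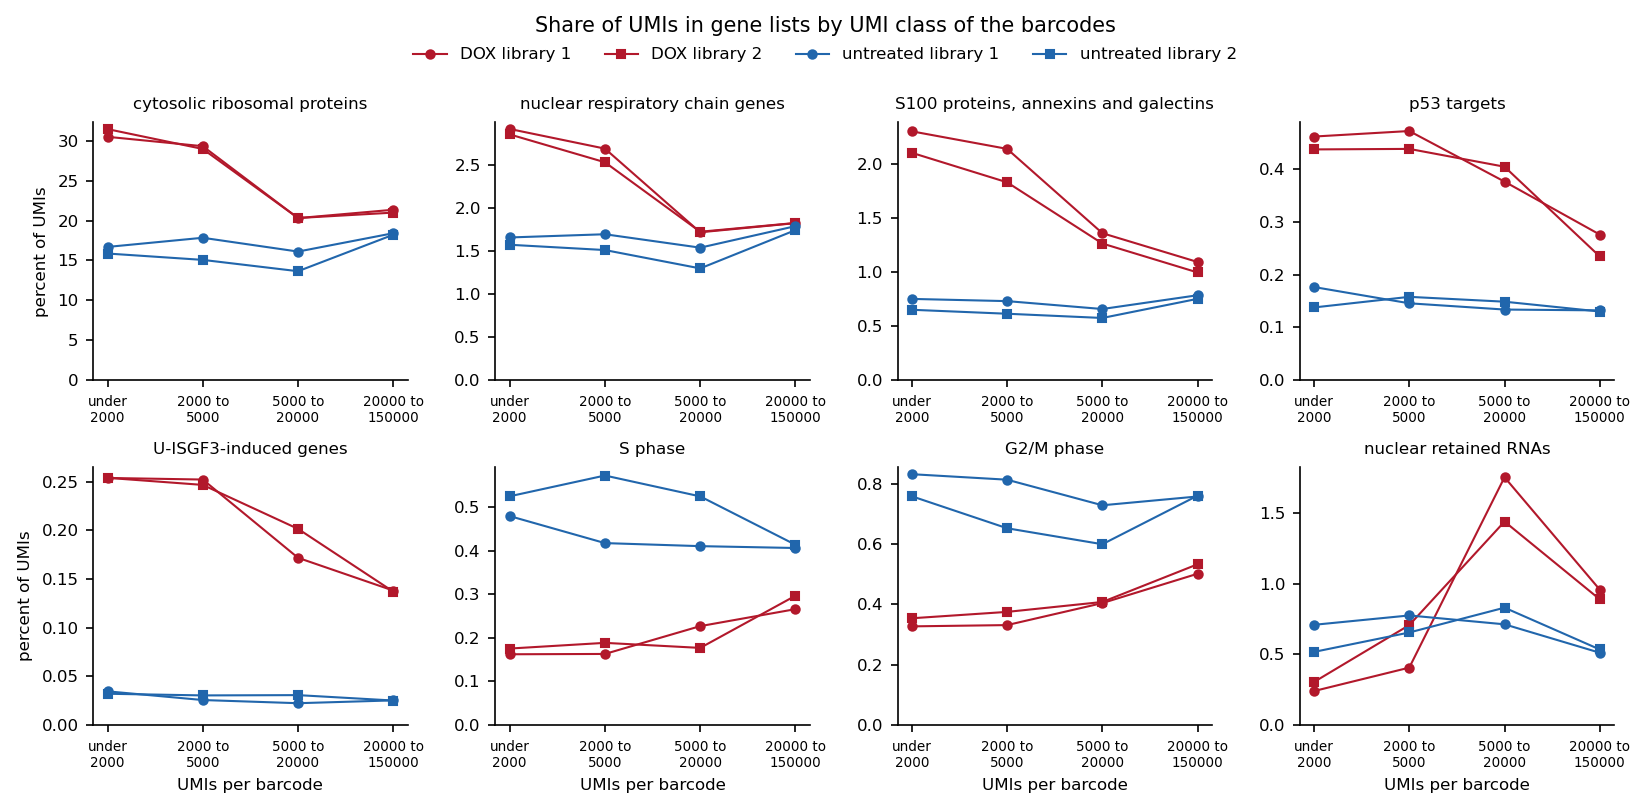
Share of UMIs (percent, vertical axis) that fell in 8 gene lists, by UMIs per barcode (4 classes, low to high, horizontal axis), for each DOX and untreated library; each point is 1 library's sum over the barcodes of a class. Ribosomal protein genes took 30.5% and 31.4% of UMIs in shallow DOX barcodes, against 16.7% and 15.9% in shallow untreated barcodes, and 21.3% and 21.0%, against 18.4% and 18.2%, in deep barcodes.

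Genes of DNA replication and division fell. Of 39 S phase genes tested 23 fell and 1 rose (35 fell and 0 rose in parts), and of 48 G2/M genes 34 fell and 1 rose (40 fell and 0 rose in parts). MKI67, a marker of cycling cells, had 268 and 267 UMIs in DOX, against 50 and 29, which is 42.3 and 48.3 CPM, against 298 and 344. Its log2 fold change was -2.05 ± 0.22 (edgeR's quasi-likelihood test, adjusted p = 1.71e-19). The kinetochore protein CENPF fell by 2.32, the helicases HELLS and BRIP1 by 1.88 and 2.69, and the checkpoint adaptor CLSPN by 2.13. The S phase list took 0.162% and 0.175% of UMIs in DOX, against 0.480% and 0.525% in untreated barcodes, and the G2/M list 0.327% and 0.354%, against 0.831% and 0.758%. In 16 of the 39 S phase genes and 13 of the 48 G2/M genes the DOX mean lay under 20 CPM, so they passed the filter through the untreated libraries.

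Not all genes of the cycle moved so far. CDC20, the activator of the anaphase-promoting complex, had 561 and 562 UMIs in DOX, against 55 and 27 (log2 fold change -1.04), and the survivin gene BIRC5 had 452 and 522, against 37 and 19 (-0.69). BIRC5 lost its call without DOX library 1 (-0.43, adjusted p = 0.270) and without untreated library 1 (-0.63, adjusted p = 0.166, both edgeR's quasi-likelihood test). CDK1 (0.18), CCNB2 (0.52), UBE2C (0.36) and CKS2 (0.41) were not called on either scale. PCNA, the sliding clamp of DNA polymerase, had 230 and 251 CPM in DOX, against 268 and 226, so its groups overlapped, and its direction turned with the scale: its log2 fold change was 0.67 with TMM (called) and -0.07 in parts (not called).

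The nuclear lamina split by member. LMNB1, lamin B1, whose loss is a usual sign of senescence, had 130 and 105 UMIs in DOX, against 22 and 20, which is 20.5 and 19.0 CPM, against 131 and 238 (log2 fold change -2.34 ± 0.31). LMNB2 fell by 1.37, the lamina-associated protein TMPO by 1.68 and the lamin B receptor LBR by 1.54. LMNA, BANF1 and EMD rose on the TMM scale (0.40, 0.77 and 0.85) and were not called in parts, where LMNA turned to -0.34. ANAPC1, a subunit of the anaphase-promoting complex, had 110 and 98 UMIs in DOX, against 13 and 12, and fell by 1.76. The DOX means of LMNB1 and ANAPC1 lay under 20 CPM. Both passed the filter through the untreated libraries, so their CPM had to be lower in DOX.

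Nuclear genes of the translation machinery and of the respiratory chain rose in shallow DOX barcodes. Of 80 cytosolic ribosomal protein genes tested 80 rose (76 in parts), with a median log2 fold change of 1.65 (0.90 in parts). RPL26 had 26561 and 24716 UMIs in DOX, against 271 and 124, which is 4190 and 4474 CPM, against 1614 and 1473 (log2 fold change 2.22 ± 0.15). Ribosomal protein genes have many near-identical pseudogenes, among which the count of reads may be uncertain. Translation factors rose in 19 of 22 (11 rose and 5 fell in parts), led by TPT1 (2.04). Respiratory chain genes of the nucleus rose in 53 of 55 (41 rose and 1 fell in parts), with a median of 1.52. Together they took 2.91% and 2.85% of UMIs in DOX, against 1.66% and 1.57%, while the mitochondrially encoded genes, whose share the selection used, took 1.74% and 2.00%, against 3.06% and 4.01%. COX7C, a subunit of cytochrome c oxidase, had 8662 and 7315 UMIs in DOX, against 88 and 52 (2.01).

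S100 and epithelial genes had higher medians than both of these lists. Of 16 S100, annexin and galectin genes tested 15 rose and 0 fell (13 rose and 1 fell in parts), with a median of 2.03. S100A6 had 80795 and 63772 UMIs in DOX, against 561 and 244, which is 12746 and 11545 CPM, against 3342 and 2898 (2.69), and S100A4 rose by 3.04. Of 10 epithelial markers 9 rose (8 in parts), with a median of 2.41, and the epithelial transcription factor ELF3 had 822 and 722 UMIs in DOX, against 1 and 2 (4.18; ratio of CPM 10.9, exact 95% interval 3.74 to 53.1). The cadherin CDH1 was not called (0.23). Of the 10 markers 3 had an untreated mean under 20 CPM and passed the filter through the DOX libraries. Those 3 had to be higher in DOX. In 4 of the 10 the untreated sums held fewer than 10 UMIs. The ferritin heavy chain FTH1 rose by 2.08 and the glutathione transferase GSTP1 by 2.10, and 12 of 17 genes of iron and redox defence rose while TFRC and GCLM fell (11 rose and 4 fell in parts).

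Other lists moved less or depended on the scale. Over all genes tested 24.1% were higher and 20.4% lower with TMM, and 9.61% were higher and 42.6% lower in parts. The shares of chaperone and of cholesterol synthesis genes that rose with TMM were close to the first of these. Proteasome genes rose in 16 of 23 with TMM and fell in 1, while in parts 4 rose and 4 fell and the median was 0.05. Chaperones rose in 5 of 19 and fell in 7 (1 rose and 15 fell in parts). The chaperonin HSPE1 turned from 0.71 with TMM to -0.04 in parts, and the endoplasmic chaperone HSPA5 from 0.42 to -0.32. Lysosomal genes rose in 13 of 17 (6 in parts), glycolytic genes in 11 of 14 (3 rose and 2 fell in parts), and genes of the actin cytoskeleton in 14 of 22 with 2 lower (9 rose and 7 fell in parts). Of 13 immediate early and heat shock genes 8 rose and 1 fell (5 rose and 2 fell in parts). Cholesterol synthesis genes rose in 3 of 12 with TMM and fell in 3 in parts, genes of the integrated stress response rose in 3 of 10 (1 rose and 1 fell in parts), and host genes of small nucleolar RNAs rose in 3 of 6 (3 rose and 1 fell in parts). Of 22 HMG and replacement histone genes 10 rose and 4 fell (5 rose and 12 fell in parts). The medians of the cholesterol, stress response and HMG lists turned negative in parts (-0.65, -0.40 and -0.56), from 0.09, 0.34 and 0.18 with TMM. Of the 2 colon differentiation genes tested, SLC26A3 and CDX2, neither was called by edgeR or DESeq2, nor did either pass at an unadjusted p under 0.05.

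**Figure D2:**
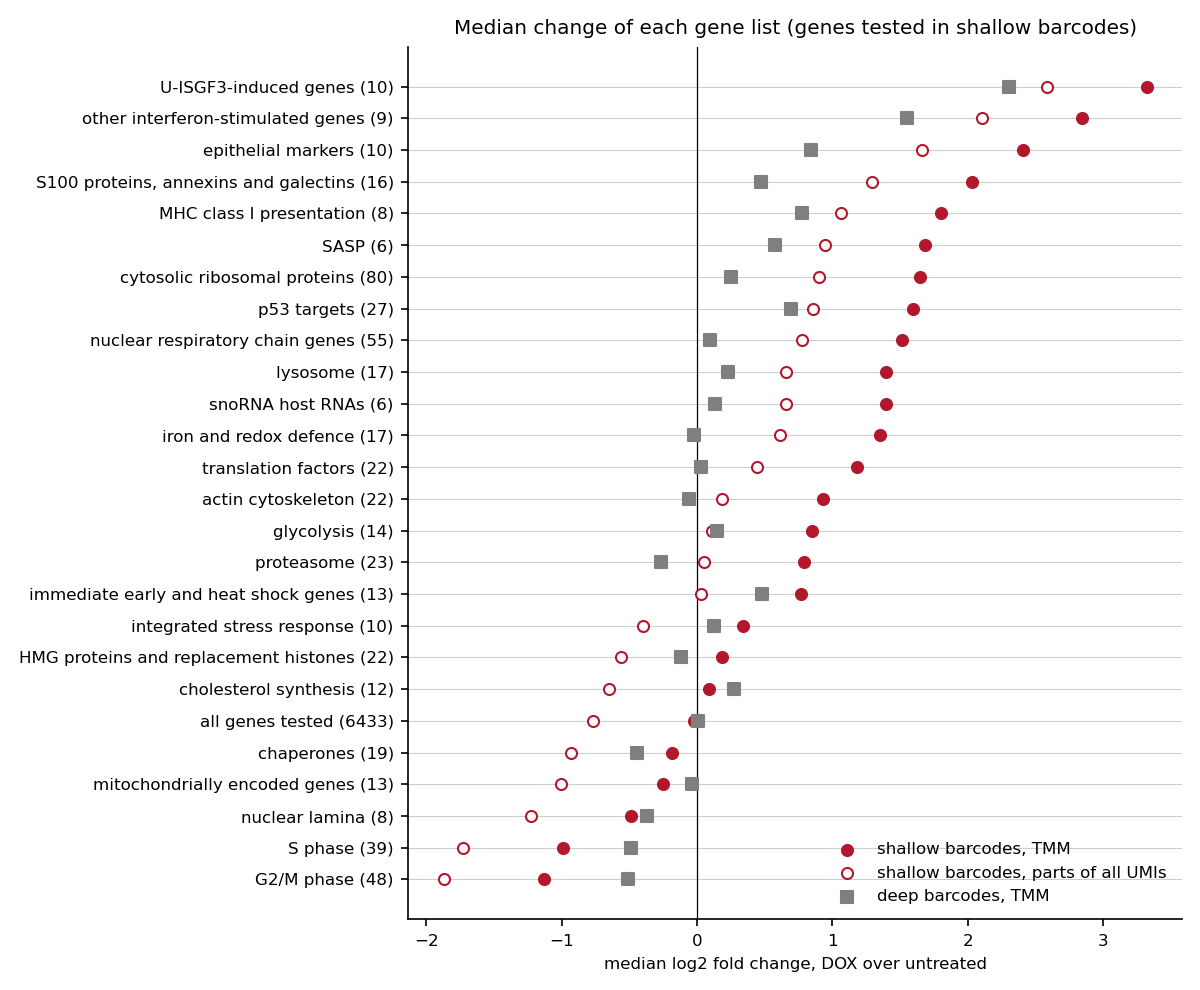
Median log2 fold change, DOX over untreated (horizontal axis), of each gene list with at least 6 genes tested in shallow barcodes (vertical axis, number tested in parentheses); filled circles are shallow barcodes with TMM scaling, open circles shallow barcodes in parts of all UMIs, squares deep barcodes. The open circles lie 0.74 to the left of the filled ones, and ribosomal protein genes have 1.65 in shallow barcodes, against 0.25 in deep barcodes.

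Noncoding RNAs and long genes were among the 10 largest falls at a mean of at least 50 CPM. RP11-366L20.2, a noncoding RNA that lies wholly within HMGA2 on the opposite strand (chr12:66245120-66275947, hg19), had 40 and 41 UMIs in DOX, against 22 and 20, which is 6.31 and 7.42 CPM, against 131 and 238. It fell by 3.87 (edgeR's quasi-likelihood test, adjusted p = 3.31e-21), and HMGA2 itself, a chromatin protein of growing cells, had 721 and 758 UMIs, against 144 and 90, and fell by 2.16. IL1RAPL1, a synaptic adhesion receptor gene spanning 1369 kb (chrX:28605563-29974835), had 110 and 140 UMIs in DOX, against 35 and 33, which is 17.4 and 25.3 CPM, against 208 and 392, and fell by 2.94. RAD51B, a recombination gene spanning 910 kb (chr14:68286496-69196935), had 101 and 124 UMIs, against 28 and 26, and fell by 2.76. FRMD5 had 263 and 266 UMIs, against 76 and 47, and fell by 2.71. The rule for the largest falls admitted only genes whose groups did not overlap. The DOX means of RP11-366L20.2 and RAD51B lay under 20 CPM. Both passed the filter on low counts through the untreated libraries, so their CPM had to be lower in DOX.

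The remaining large falls were of the noncoding RNAs AC114765.1 (3.36 lower on the log2 scale), LINC00669 (3.26) and RP11-384F7.1 (2.92), the Fanconi anaemia gene FANCA (2.77), the cohesin subunit STAG1 (2.70) and BRIP1. Among the largest rises that had untreated UMIs were IFI27, CDKN1A, GDF15, cytochrome b5 (CYB5A, 1090 and 819 UMIs in DOX, against 1 and 0, log2 fold change 6.05) and the ion transport regulator FXYD3 (1973 and 1360, against 2 and 1, 5.28). The exact 95% interval of the ratio of CPM was 7.27 to 1603 for CYB5A (ratio 40.6) and 8.07 to 115 for FXYD3 (ratio 23.6). Another protein-coding gene overlaps FXYD3 in part on the same strand, so the counts of FXYD3 are uncertain. Without untreated UMIs were IFI6, IFIT1, the iron-sequestering lipocalin LCN2 (at least 8.21-fold higher) and the keratin-associated gene KRTAP3-1 (1429 and 781 UMIs in DOX, at least 15.7-fold higher). Of the rises named here only GDF15 had an untreated mean of at least 20 CPM. The other genes passed the filter on low counts through the DOX libraries and had to be higher there.

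Gene span was related to the change in shallow barcodes across the genes tested, which are not independent replicates. Genes under 5 kb were higher in DOX in 67.4% of 518 and lower in 3.28%, with a median log2 fold change of 1.13 (0.39 in parts). Genes of 20 to under 100 kb were higher in 17.2% of 2860 and lower in 17.7%, with a median of -0.12 (-0.86 in parts). Of the 264 genes of 300 kb or more 1 was higher and 197 were lower (74.6%), with a median of -1.44 (-2.18 in parts). In deep barcodes the medians of the same classes were 0.03, -0.05 and 0.24.

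The shares of UMIs showed the same in each library. Genes of 300 kb or more held 0.805% and 0.851% of UMIs in shallow DOX barcodes, against 3.07% and 3.65% in shallow untreated barcodes. In deep barcodes they held 3.27% and 3.37%, against 2.80% and 3.05%. With ribosomal protein genes left out of the totals the shallow shares were 1.16% and 1.24% in DOX, against 3.69% and 4.34%. Genes under 5 kb held 29.7% and 30.2% of shallow DOX UMIs, against 20.4% and 19.9%. Spans run from the first to the last base of the annotated gene, introns included. Whether reads in introns were counted is not given in the sources used here.

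**Figure D3:**
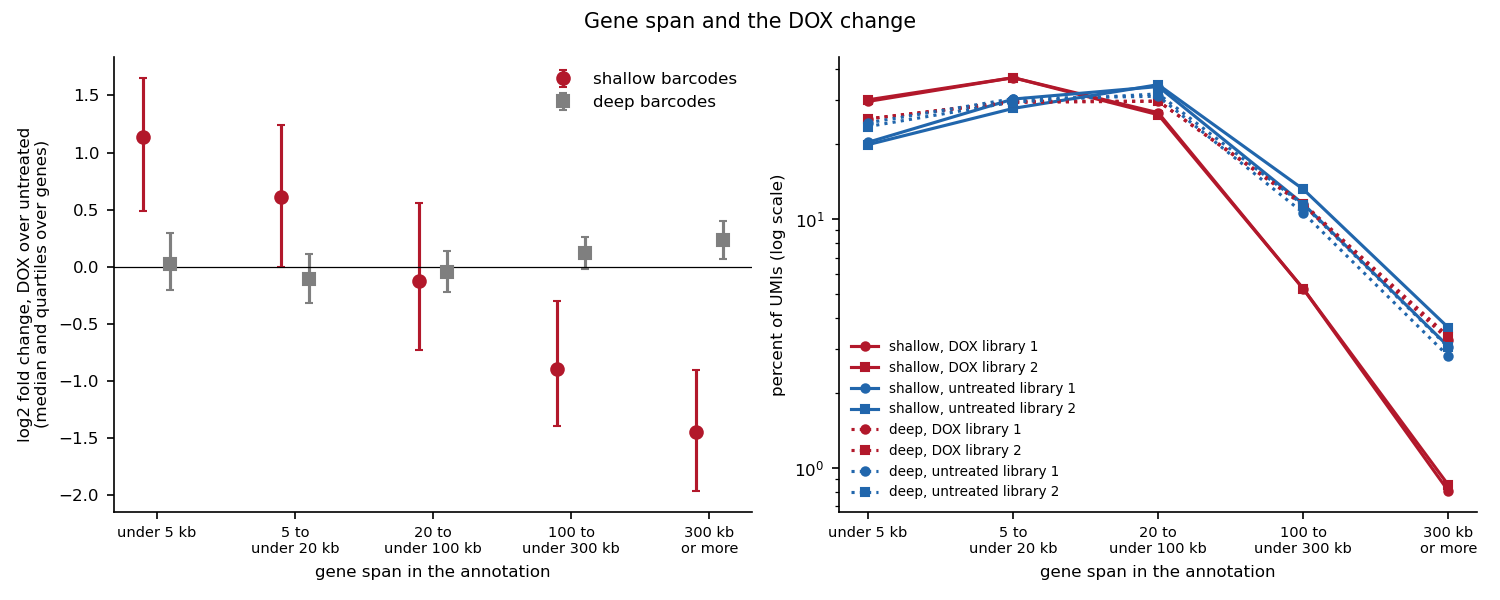
Left, median and quartiles over genes of the log2 fold change, DOX over untreated (vertical axis), in shallow and deep barcodes, by gene span (5 classes, horizontal axis); right, the percent of UMIs (log scale) in each span class per library, solid lines for shallow and dotted for deep barcodes. The shallow medians go from 1.13 under 5 kb to -1.44 at 300 kb or more, while the deep medians lie between -0.11 and 0.24.

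RNAs known to be retained in the nucleus took a smaller share of UMIs in shallow DOX barcodes than in shallow untreated ones. MALAT1 had 14576 and 16114 UMIs in DOX, against 1157 and 420, which is 2300 and 2917 CPM, against 6892 and 4989, a log2 fold change of -0.46 (-1.21 in parts). In deep barcodes it rose by 0.84, at 8838 and 8283 CPM in DOX, against 4915 and 5136. NEAT1, the scaffold of paraspeckles, was at 82.0 and 105 CPM in shallow DOX barcodes, against 155 and 131 in untreated ones (0.09, not called, and -0.65 in parts, called), and rose by 2.05 in deep barcodes. The 5 listed RNAs took 0.240% and 0.304% of shallow DOX UMIs, against 0.708% and 0.517%. In deep barcodes they took 0.957% and 0.888%, against 0.511% and 0.534%.

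Mitochondrially encoded genes entered the choice of barcodes and are given with no test. MT-ND6, the only one of the 13 encoded on the light strand, had 86.1 and 94.1 CPM in shallow DOX barcodes, against 894 and 665. MT-CYB had 1608 and 1924 CPM in DOX, against 1996 and 1829. The log2 difference in parts ran from -3.17 for MT-ND6 to -0.13 for MT-CYB.

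In deep barcodes DOX changed 3950 of 6986 genes (2056 higher, 29.4%, and 1894 lower, 27.1%), and TMM scaling moved those values by 0.07 only. The deep barcodes come from the same libraries, so values at the 2 depths are not independent. Without DOX library 1 the deep count was 2317, and with the deep sums thinned to the UMI totals of the shallow ones it was 176, against 2862 in the shallow sums. For each gene the difference between the depths (shallow minus deep log2 fold change) was tested with the library as a block. It was called in 2813 of 6728 genes, with 1356 positive (20.2%) and 1457 negative (21.7%). In parts, where TMM's shift of 0.56 is absent, 598 were positive (8.89%) and 2587 negative (38.5%), so the positive share of calls was 48.2% with TMM and 18.8% in parts. Without untreated library 1 the count was 1746, and in the draw matched on number and UMIs it was 789.

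How many genes changed to a different extent at the 2 depths varied by list. The difference was positive in 80 of 80 ribosomal protein genes (77 in parts), with a median of 1.32, and in 52 of 55 respiratory chain genes, while in deep barcodes 51 ribosomal protein genes rose and 1 fell with a median of 0.25, and 16 respiratory chain genes rose and 3 fell. It was also positive in 18 of 23 proteasome genes, of which 19 fell and 0 rose in deep barcodes, and in 14 of 16 S100, annexin and galectin genes. By contrast, 23 of 26 p53 targets rose in deep barcodes (median 0.69) and the difference was positive in 8 of 28 (3 positive and 2 negative in parts). The U-ISGF3-induced genes had a positive difference in 1 of 8 and a negative one in 1 of 8, and rose in 8 of 8 in deep barcodes. G2/M genes fell in 50 of 51 in deep barcodes with a median of -0.51, and the difference was negative in 20 and positive in 7 of 50 (37 negative and 1 positive in parts), with a median of -0.77 (-1.33 in parts).

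Some p53 and interferon genes rose further in shallow barcodes. CDKN1A rose by 3.16 in deep barcodes (276 and 193 CPM in DOX, against 26.7 and 28.4), and the difference of 2.10 was called (edgeR's quasi-likelihood test, adjusted p = 0.0125). That call was lost in parts (1.54, adjusted p = 0.0844) and without untreated library 1 (1.61, adjusted p = 0.155, edgeR's quasi-likelihood test in each case). GDF15 rose by 2.89 in deep barcodes, with a difference of 1.41 that was not called in parts (0.85). ISG15 rose by 2.53 in deep barcodes, with a difference of 1.47 (edgeR's quasi-likelihood test, adjusted p = 2.62e-06), called in parts too (0.90). IFI27 rose by 6.40 in deep barcodes and its difference of 0.41 was not called.

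Among called genes with a mean of at least 50 CPM over the 8 sums, the genes with the largest positive differences had few untreated UMIs, at most 13 in a library. CYB5A rose by 0.90 in deep barcodes (90.0 and 73.2 CPM in DOX, against 47.6 and 43.9), with a difference of 5.08. PDLIM1, a cytoskeletal adaptor, had 136 and 131 CPM in shallow DOX barcodes, against 23.8 and 35.6, and changed by 0.15 in deep barcodes, which was not called. TIMP1 had 387 and 423 CPM in shallow DOX barcodes, against 71.5 and 107, and rose by 0.43 in deep barcodes, with a difference of 2.50 (edgeR's quasi-likelihood test, adjusted p = 1.58e-09). The protease inhibitor CST3 had 569 and 574, against 77.4 and 35.6, and a difference of 2.46.

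Within the same limit, the 8 largest negative differences were those of IL1RAPL1, RAD51B, PLCB1 and 5 noncoding RNAs. IL1RAPL1 rose by 0.32 in deep barcodes, with a difference of -3.37 (edgeR's quasi-likelihood test, adjusted p = 2.36e-10), and RP11-366L20.2 was not called in deep barcodes (-0.08), with a difference of -3.89. LMNB1 fell by 0.51 and MKI67 by 0.45 in deep barcodes, with differences of -1.93 and -1.73. For CDC20, which fell by 1.00 in deep barcodes, the difference of -0.13 was not called. PCNA fell by 0.46 in deep barcodes, so its value in shallow barcodes differed by 1.02 (0.46 in parts, both called).

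**Figure D4:**
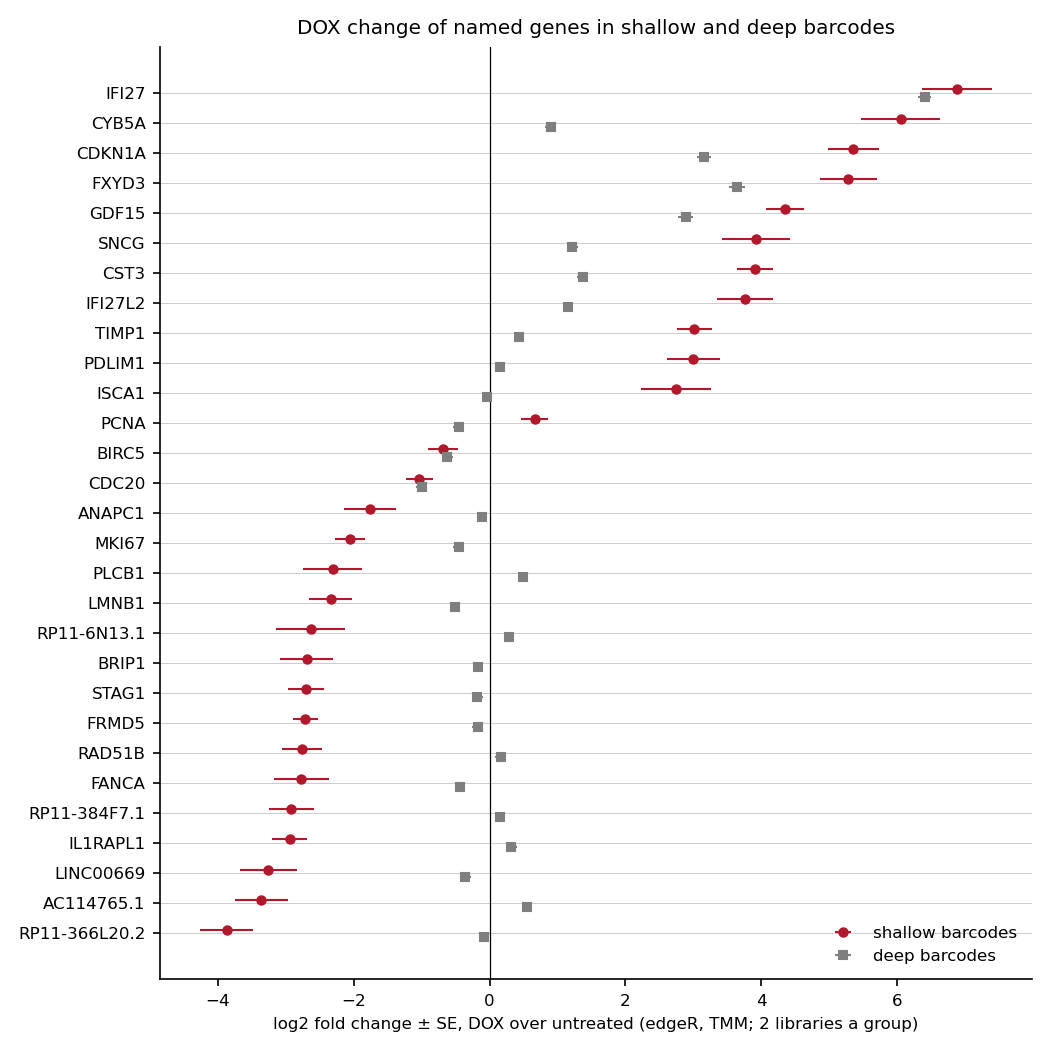
Log2 fold change ± SE, DOX over untreated (horizontal axis; edgeR, 2 libraries a group), of the study's marker genes and the genes with the largest changes or differences (vertical axis), circles for shallow and squares for deep barcodes; genes with no untreated UMI and some genes not reported here are left out. CDKN1A lies at 5.36 in shallow and 3.16 in deep barcodes, and IL1RAPL1 at -2.94 and 0.32.

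In DOX libraries barcodes just above the limit still had high ribosomal shares. Ribosomal protein genes took 29.3% and 28.9% of DOX UMIs at 2000 to under 5000 UMIs per barcode, against 17.8% and 15.1%, and 20.3% and 20.3% at 5000 to under 20000, against 16.1% and 13.7%. The U-ISGF3-induced genes took 0.254% and 0.254% of shallow DOX UMIs, against 0.0346% and 0.0321%, and 0.138% and 0.137% of deep DOX UMIs, against 0.0253% and 0.0251%. These shares are a description per library and were not tested; an exact permutation test of 2 libraries against 2 cannot go below p = 0.33.

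In their ribosomal protein share shallow DOX barcodes were more alike than shallow untreated ones. The ribosomal protein share per barcode had a median of 30.6% and 31.6% in DOX, with the 5th to 95th percentile at 27.0% to 33.6% and 27.5% to 35.0%. In untreated libraries it had a median of 17.6% and 16.6%, with the 5th to 95th percentile at 5.26% to 21.9% and 4.77% to 20.6%. Above 25% lay 98.2% and 97.9% of DOX barcodes and none of the untreated ones, whose highest values were 24.1% and 23.9%. Under 10% lay 0 and 1 DOX barcodes, against 18 and 6 untreated ones (12.9% and 8.45%). The variance between barcodes was 3.66 and 4.85 times that of counting in DOX, against 18.1 and 14.9 times. After a random draw of 500 UMIs from each barcode (none was too shallow for it), the median number of genes detected was 347 and 344 in DOX, against 400.5 and 411.

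**Figure D5:**
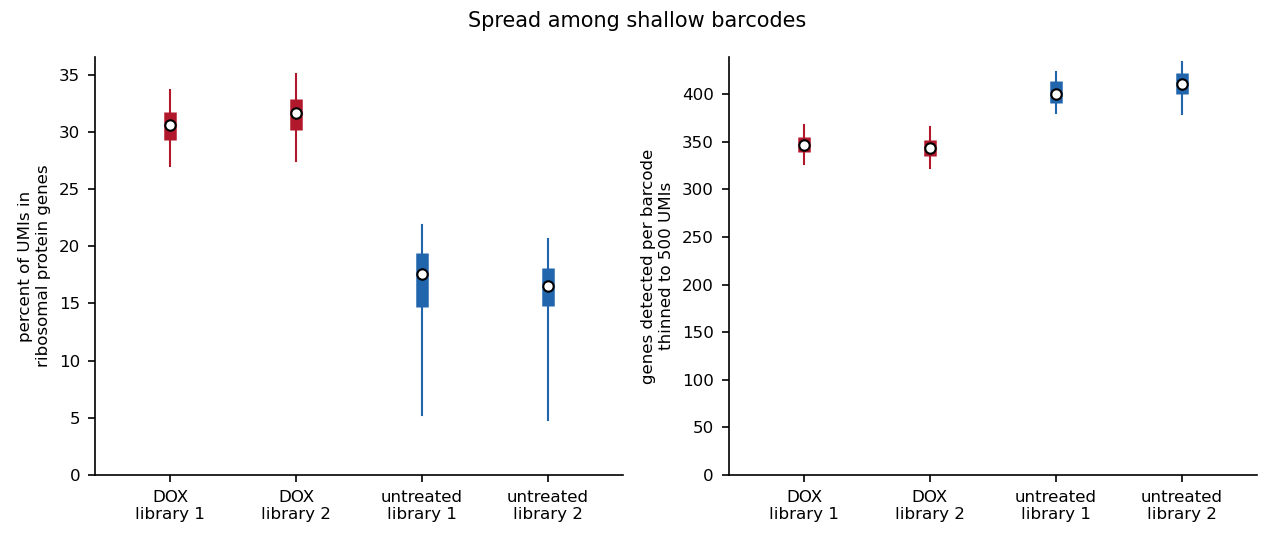
Spread over shallow barcodes within each DOX and untreated library (horizontal axis) of the percent of UMIs in ribosomal protein genes (left) and of the genes detected after thinning to 500 UMIs (right); circles are medians, thick bars the quartiles and thin lines the 5th to 95th percentile. The ribosomal share has medians of 30.6% and 31.6% in DOX, against 17.6% and 16.6% in untreated barcodes.

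The marker genes were spread over many DOX barcodes. ISG15 had a UMI in 89.4% and 86.9% of shallow DOX barcodes, against 17.9% (exact binomial 95% interval 11.9% to 25.2%) and 16.9% (9.05% to 27.7%) of untreated ones. CDKN1A had one in 42.8% and 37.4%, against 1.43% (0.173% to 5.07%) and 2.82% (0.343% to 9.81%). MKI67 had one in 5.53% and 5.66% of shallow DOX barcodes, against 28.6% (21.3% to 36.8%) and 28.2% (18.1% to 40.1%) of untreated ones. After thinning to 500 UMIs the DOX share of CDKN1A was 17.7% and 16.8%, against 0.714% and 2.82%, and that of ISG15 was 56.4% and 56.4%, against 7.14% and 8.45%. The intervals cover counting error only. HCT116 cultures hold no cell type that should lack these genes, so no background share can be set beside them, and what free RNA adds was not tested.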

How the data were processed

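Single-cell 3′ RNA of HCT116 cells was measured with the 10x Genomics system in 2 DOX and 2 untreated libraries. The authors aligned the reads to hg19 and deposited UMI counts per gene and barcode, whole numbers with no normalisation. The file headers name Cell Ranger 7.2.0, as the study's methods do, and the submitters' processing notes 7.0.0. For DOX libraries 8000 barcodes were forced, and in untreated libraries the default caller was left in place. The study's own cell filters kept barcodes with a mitochondrial share under 8% and fewer than 150000 UMIs.

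Counts of shallow and of deep barcodes were summed per library. Barcodes, gene lists and named genes were chosen with earlier results of these data known. DOX was tested against untreated with edgeR 4.0.16 (R 4.3.3; TMM factors, glmQLFit, glmQLFTest) on genes with a mean of at least 20 CPM over the libraries, with Benjamini-Hochberg adjustment over all genes tested and a threshold of 0.05. The difference between depths was the interaction of depth and DOX in 8 sums, with the library as a block. The sources give no test between conditions for these libraries. Log2 fold changes are DOX over untreated.

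Genes were named by rule. They were the study's markers, the 10 largest rises and 10 largest falls among called genes with a mean of at least 50 CPM and groups that did not overlap, the 8 largest differences in each direction, and, for every list, the 3 genes with the smallest p in shallow barcodes. Other list members were named after their values were seen. Some genes that the rule names are not reported here. Mitochondrially encoded genes were left out of the rises and falls because they entered the choice of barcodes. Symbols with 2 identifiers in the files, or with none, were left out of the lists. Gene spans and coordinates come from GENCODE for hg19, introns included, and 99.2% of tested genes had one. Promoters came from RefSeq.

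The fits were tested on simulated data, drawn with 1 common dispersion. In shallow sums they called 11.3% of 1.5-fold, 24.2% of 2-fold and 78.95% of 4-fold changes in the right direction. In deep sums they called 100% of each. For the difference between depths the shares were 4.545%, 26.6% and 76.9%. A gene that was not called in shallow barcodes, or for the difference, may therefore still have changed. Alternatives tried were other scaling factors, DESeq2 1.42.0, other filters, UMI and mitochondrial limits, matched and thinned barcodes, a replicate block and leaving out each library. Python 3.11.15 with numpy 2.4.6, pandas 2.3.3, scipy 1.17.1 and matplotlib 3.10.9 was used for the sums, shares and figures.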

Additional observations from a re-analysis of the deposited data

Results flagged for a closer look

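Tested against each other, the DOX changes in shallow and deep barcodes differed in 2813 genes by edgeR's quasi-likelihood test of the interaction. The named genes among them are given here with the shallow minus deep difference of their log2 fold changes.

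The 7 positive differences were those of CYB5A (5.08), PDLIM1 (2.76), ISCA1 (2.70), SNCG (2.62), IFI27L2 (2.50), TIMP1 (2.50) and CST3 (2.46). ISCA1, a gene of iron-sulfur cluster assembly, had 430 and 332 UMIs in shallow DOX barcodes, against 1 and 3 in shallow untreated barcodes, and its call was lost without untreated library 1 (1.52, adjusted p = 0.0996, edgeR's quasi-likelihood test). SNCG, a synuclein gene, rested on 3 untreated UMIs (ratio of CPM in shallow barcodes 9.08, exact 95% interval 3.10 to 44.1 for counting error). The calls of ISCA1, SNCG and IFI27L2 were also lost when DOX barcodes were drawn to match the untreated ones on number and UMIs. IFI6 was called too (adjusted p = 0.0274, edgeR's quasi-likelihood test), but it had no untreated UMI in shallow barcodes, so no size of its difference is given.

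The 8 negative differences were those of AC114765.1 (-4.05), RP11-366L20.2 (-3.89), IL1RAPL1 (-3.37), RP11-384F7.1 (-3.20), RP11-6N13.1 (-3.04), RAD51B (-3.04), LINC00669 (-3.03) and PLCB1 (-2.93). In PLCB1, a phospholipase C gene that spans 891 kb, the shallow DOX libraries had 49 and 86 UMIs, against 16 and 8 in shallow untreated libraries, and deep DOX barcodes were at 87.8 and 87.8 CPM, against 63.1 and 68.6.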

How the results depend on the processing

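Counts of called genes kept within 1.5 times their value under most alternatives, and those that did not were these. With a mean of at least 100 CPM, which leaves fewer genes to test, 1055 genes were called in shallow barcodes, 978 in deep barcodes and 1106 for the difference. With DOX barcodes drawn to match the untreated ones on number and UMIs the shallow count was 888 and the difference 789. In deep barcodes edgeR's own filter gave 10778, no filter 11856 and thinning to the shallow totals 176. Leaving out 1 library gave 1926 to 2184 calls in shallow barcodes, 2317 to 4084 in deep barcodes and 1746 to 2571 for the difference, where the lone library of a group is assumed to vary like the others. DESeq2 called 2419, 3953 and 2316 genes. PCNA reversed in shallow barcodes, to -0.075 in parts of all UMIs and to -0.038 in the matched draw, neither called, and the cause was not tested. Among the other values of named genes 1351 kept direction and call, 48 lost the call, 12 gained it and 18 uncalled values moved. Of the medians of 8 lists 177 moved by less than the spread between libraries, 157 by more, and none of these 8 changed sign.

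The replicate numbers are names only: the deviations of same-numbered libraries correlated at 0.0416 in shallow and 0.106 in deep barcodes over genes. With a replicate block 2743 genes were called in shallow barcodes, 4123 in deep barcodes and 2801 for the difference.

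Limits: the 211 untreated barcodes set the precision, since 1 UMI there is worth 5.96 or 11.9 CPM. The groups differ in cell calling and in depth, and doublets and free RNA were not modelled. Fewer than 1000 UMIs was planned as another limit and was not run, since the shallow DOX barcodes start at 1341 and 1160 UMIs.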
